A study of Macaca mulatta with 8 samples.

Results

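Messenger RNA was compared between the last 2 stages of an in vitro neural differentiation of the rhesus monkey embryonic stem cell (ESC) line IVF3.2. The earlier stage, R-NSCP6, was the rosette culture at passage 6, the passage at which rosettes were no longer seen, and the later stage, NPC, was made of neural progenitor cells kept for more than 100 days. These 2 libraries are 2 of the 8 of the series, which also holds ESC and first-passage rosette (R-NSCP1) mRNA libraries and 4 small RNA libraries. All 12460 gene symbols of the deposited mRNA table were compared, with the highest row kept for each of the 128 symbols that have more than 1 row. Rosettes are radial arrays of neuroepithelial cells that resemble a cross-section of the early neural tube.

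R-NSCP6 cells were grown in N2 medium with SHH (500 ng/ml), Dll4 (500 ng/ml) and Jagged-1 (500 ng/ml), whereas NPCs received FGF2 (20 ng/ml) and EGF (20 ng/ml). Both media held BDNF (20 ng/ml) and ascorbic acid (0.2 mM), and both cultures grew on polyornithine and laminin. Both come from a single ESC line, and each library was a pool over repeats. Stage, medium and time in culture changed together, so their effects cannot be told apart. With 1 library a side there is no replicate check and no test, and a difference below is a log2 ratio of FPKM + 1, NPC over R-NSCP6, where FPKM counts fragments per length of transcript and per size of the library. A gene is called higher in a stage when that ratio is at least 1 in its favour, which is 2-fold. The paper calls a gene expressed at 3 FPKM or more. The deposited table appears to hold only genes that reach this in some stage. A missing row may thus mean a lower level in every stage, or an unmatched symbol. A gene may also have its row only through the stage where it is high, and it then could not come out lower there. In a bulk library, fewer cells of a type and less RNA per cell cannot be told apart.

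During forebrain development, neuroepithelial cells become radial glia, which first give rise to neurons and later to astrocytes and oligodendrocyte precursors. Sonic hedgehog patterns the ventral neural tube, while Wnt and BMP signals from the cortical hem and roof plate pattern the dorsal side. Notch signalling keeps progenitors undifferentiated, and FGF2 with EGF is the classical medium for propagating neural stem cells of a glial character.

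The stage labels were first set against the markers of the cell types the cultures could hold. Over all 12460 genes, 13.2% were at least 2-fold higher in NPC and 18.2% at least 2-fold higher in R-NSCP6. Of 8 astroglial markers with a row, 7 were higher in NPC and 1, the glycolytic enzyme ALDOC, was lower, and their summed level was 173 FPKM in R-NSCP6 and 1678 FPKM in NPC. GFAP, S100B, AQP4 and HEPACAM reached 3 FPKM only in NPC, so they may have a row only through NPC. Of 8 neural progenitor markers, 4 were lower in NPC and 1, VIM, was higher. Their summed level was 2191 FPKM in R-NSCP6 and 3735 FPKM in NPC, of which VIM made up 948 and 2515 FPKM. All 7 cortical glutamatergic markers with a row were lower in NPC, with 149 FPKM summed in R-NSCP6 and 0.678 FPKM in NPC. NEUROD1, NEUROD2, NEUROD6, BHLHE22 and SLC17A6 reached 3 FPKM only in R-NSCP6, so they may have a row only through it. Of 9 general neuron markers with a row, 4 were lower and 1, DCX, was higher. These summed to 357 FPKM in R-NSCP6 and 230 FPKM in NPC, of which STMN2 made up 201 and 179 FPKM. The 4 oligodendrocyte lineage markers with a row were all higher in NPC, with 45.1 and 285 FPKM summed. The 3 choroid plexus markers with a row added up to 175 FPKM in R-NSCP6, most of it TTR, and 0.536 FPKM in NPC. Pluripotency markers were near 0 in both libraries, with 0.569 and 0.242 FPKM summed over 5 genes, among them POU5F1, NANOG and PRDM14. The 5 fibroblast markers added up to 9.26 FPKM in R-NSCP6 and 12.1 FPKM in NPC, and the 2 endothelial markers with a row reached no more than 1.86 FPKM. Microglia and blood markers have no row in the table, which may mean under 3 FPKM in every stage or unmatched symbols, and no level was assessed.

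Of the 12460 genes, 1645 were at least 2-fold higher in NPC, 13.2% of all, and 2269 were at least 2-fold higher in R-NSCP6, 18.2% of all. The other 8546 lay within 2-fold. Many started from a low level: 763 of the genes higher in NPC were under 3 FPKM in R-NSCP6, and 890 of those higher in R-NSCP6 were under 3 FPKM in NPC. The median log2 ratio over all genes was -0.17, with quartiles of -0.78 and 0.48, and list medians below are to be read against it. List counts below are to be read against the shares of all genes, 13.2% and 18.2%. The shift was larger for more abundant genes. The median log2 ratio was -0.06 for the 4162 genes with a mean of 3 to 10 FPKM, -0.34 for the 1935 genes of 30 to 100 FPKM, -0.57 for the 500 genes of 100 to 300 FPKM and -0.49 for the 234 genes above that. The FPKM values of R-NSCP6 summed to 771784 and those of NPC to 500821. CTXN1, the gene of the neuronal membrane protein cortexin, made up 15.7% of the R-NSCP6 sum and 0.389% of the NPC sum. It was at 120988 FPKM in R-NSCP6 and 1949 FPKM in NPC, but also at 4577 FPKM in ESC and 4218 FPKM in R-NSCP1. With FPKM divided by the library sum, 3210 genes were higher in NPC and 1109 in R-NSCP6, so the share of called genes that were higher in NPC was 42.0% as deposited and 74.3% on that scale. That scaling moved the median of all genes to 0.36. Of the 320 genes past 2-fold that the naming rule picked, 269 stayed past 2-fold under it. None of them could change sign, since that scaling moved ratios by less than 2-fold.

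**Figure D1:**
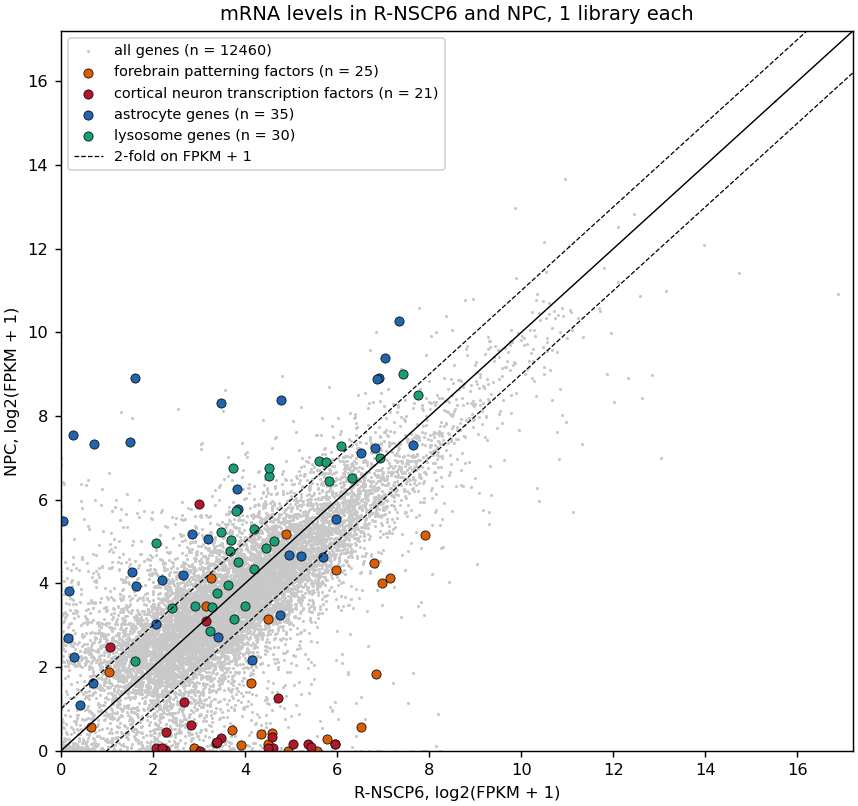
Each point is 1 gene, with log2(FPKM + 1) in R-NSCP6 on the x axis and in NPC on the y axis. The solid line marks equal levels and the dashed lines 2-fold. Cortical neuron factors (red) and forebrain patterning factors (orange) lie mostly below the lower dashed line, whereas astrocyte genes (blue) lie mostly above the upper dashed line and 13 of 30 lysosome genes (green) lie at or above it.

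The largest differences towards R-NSCP6 included secreted Wnt enhancers of the R-spondin family. RSPO3 (LOC712288) was at 281 FPKM in R-NSCP6 and 0.0730 FPKM in NPC, RSPO2 was at 290 and 0.838 FPKM, and RSPO1 (LOC713976) was at 91.3 FPKM and listed at 0 in NPC. CRABP1, a cytoplasmic retinoic acid-binding protein, was at 185 FPKM in R-NSCP6 and 1.21 FPKM in NPC. COL2A1, the collagen of cartilage and of early neuroepithelial basement membranes, was at 79.6 and 0.0701 FPKM. ISLR2, a membrane protein of growing axons, was at 84.1 and 0.286 FPKM, and the zinc finger factor ZIC2 was at 91.1 and 0.472 FPKM. All of these were within the 20 largest ratios in that direction among genes of at least 20 FPKM.

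Towards NPC, the largest ratios included those of glial and matrix genes. GFAP, the astrocyte intermediate filament, was at 2.06 FPKM in R-NSCP6 and 483 FPKM in NPC, and SPARCL1, a synapse-promoting protein secreted by astrocytes, was at 0.194 and 186 FPKM. ANXA1, a phospholipid-binding protein, was at 1.46 FPKM in R-NSCP6 and 274 FPKM in NPC, and the secreted protease gene HTRA1 was at 1.90 and 246 FPKM. PMP22, a membrane protein of peripheral myelin, was at 0.342 and 82.6 FPKM. LAMA4, a laminin chain, was at 0.499 and 88.1 FPKM, and CAV1, the coat protein of caveolae, was at 1.06 and 98.9 FPKM. A2M, a protease inhibitor, was at 4.81 and 286 FPKM, and TFPI, an inhibitor of coagulation, was at 0.359 and 61.6 FPKM. Beside these, 6 of the 20 largest ratios towards NPC and 8 of the 20 towards R-NSCP6 belonged to uncharacterized genes with no name in the gene table used here. Of those 2 sets of 20, 5 and 11 genes were listed at exactly 0 in the other library. Such zeros carry no known limit of detection, and 89 genes of the table are listed at 0 in both libraries.

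Transcription factors of cortical neurons were lower in NPC as a group. Of 21 with a row, 18 were lower and 2 higher, and the median log2 ratio was -3.17. FEZF2, which specifies subcortical projection neurons, was at 61.4 FPKM in R-NSCP6 and 0.116 FPKM in NPC. TBR1, a factor of early-born deep-layer neurons, was at 41.9 and 0.0710 FPKM. EOMES, which marks intermediate progenitors, was at 40.03 and 0.114 FPKM. The proneural gene NEUROG2 (LOC701345) was at 25.3 FPKM in R-NSCP6 and kept 1.39 FPKM in NPC, while NEUROD6 went from 32.0 to 0.124 FPKM. LHX5, a factor of Cajal-Retzius cells and of the hem, was at 23.4 and 0.0386 FPKM. Among the higher genes was POU3F2, an upper-layer and radial glial factor, with 6.96 FPKM in R-NSCP6 and 58.9 FPKM in NPC. SOX5 was the 1 member within 2-fold, at 7.82 and 7.56 FPKM.

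General neuronal genes divided. Of 13 neuronal RNA-binding and splicing genes, 8 were lower in NPC and none was higher, with a median log2 ratio of -2.18. The neuronal ELAV-like proteins, which stabilise mRNAs of differentiating neurons, were all lower: ELAVL4 was at 31.0 FPKM in R-NSCP6 and 0.765 FPKM in NPC, ELAVL2 at 27.6 and 1.03 FPKM, and ELAVL3 (LOC716563) at 33.1 and 3.83 FPKM. The NOVA splicing factors were not: NOVA1 (LOC716705) was at 26.3 and 25.7 FPKM and NOVA2 (LOC716859) at 10.2 and 8.85 FPKM. Of 19 synaptic vesicle and release genes, 12 were lower and 1 was higher, with a median of -1.57. CPLX2, a complexin that clamps vesicle fusion, was at 58.0 FPKM in R-NSCP6 and 0.943 FPKM in NPC. SYT4, a synaptotagmin of dense-core vesicles, was at 17.6 and 0.128 FPKM, and the vesicle protein gene SYP (LOC715739) was at 15.4 and 1.09 FPKM. In contrast, the calcium sensor SYT1 was at 15.8 and 16.6 FPKM and the vesicle fusion protein VAMP2 at 50.001 and 48.2 FPKM. SYT11, which is also found in glia, was the 1 higher member, at 27.4 and 72.7 FPKM.

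The neuronal cytoskeleton did not follow the transcription factors. Of 26 genes of the neuronal cytoskeleton and of neurite growth, 9 were lower, 3 were higher and 14 lay within 2-fold. The median log2 ratio was -0.51, and it was 0.10 with FPKM divided by the library sum, so the list has no direction that holds under both. STMN2, a microtubule-destabilising protein of growth cones, was at 201 FPKM in R-NSCP6 and 179 FPKM in NPC, and TUBB2B, a tubulin of developing neurons and radial glia, at 336 and 332 FPKM. GAP43, a growth cone protein also made by some glia, was at 203 and 317 FPKM. The neurofilament gene NEFL was higher in NPC, at 1.80 and 20.1 FPKM, whereas the related INA was lower, at 46.7 and 8.08 FPKM. The stathmins STMN4 and STMN1 (LOC719733) were lower, at 80.3 and 9.64 FPKM and at 943 and 377 FPKM. Several genes of this group are also made by progenitors or glia.

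Genes of transmitter synthesis and reception were also mixed, with 9 of 17 lower and 5 higher. SLC17A6, the vesicular glutamate transporter of subcortical and early cortical neurons, was at 8.26 FPKM in R-NSCP6 and 0.0101 FPKM in NPC. GAD1, which makes GABA, was at 0.0919 and 16.4 FPKM, and the GABA-B receptor subunit GABBR2 was at 1.12 and 27.2 FPKM. The GABA-A receptor subunit GABRG1 (LOC703792) went the other way, at 7.74 and 0.430 FPKM. Among 8 factors and markers of ventral forebrain and interneurons, 3 were higher in NPC and 4 lower. The homeobox factors PROX1 and DLX1 were at 0.5001 and 9.48 FPKM and at 0.192 and 3.72 FPKM. RELN, the secreted protein of Cajal-Retzius cells, was at 11.6 FPKM in R-NSCP6 and 0.0732 FPKM in NPC.

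**Figure D2:**
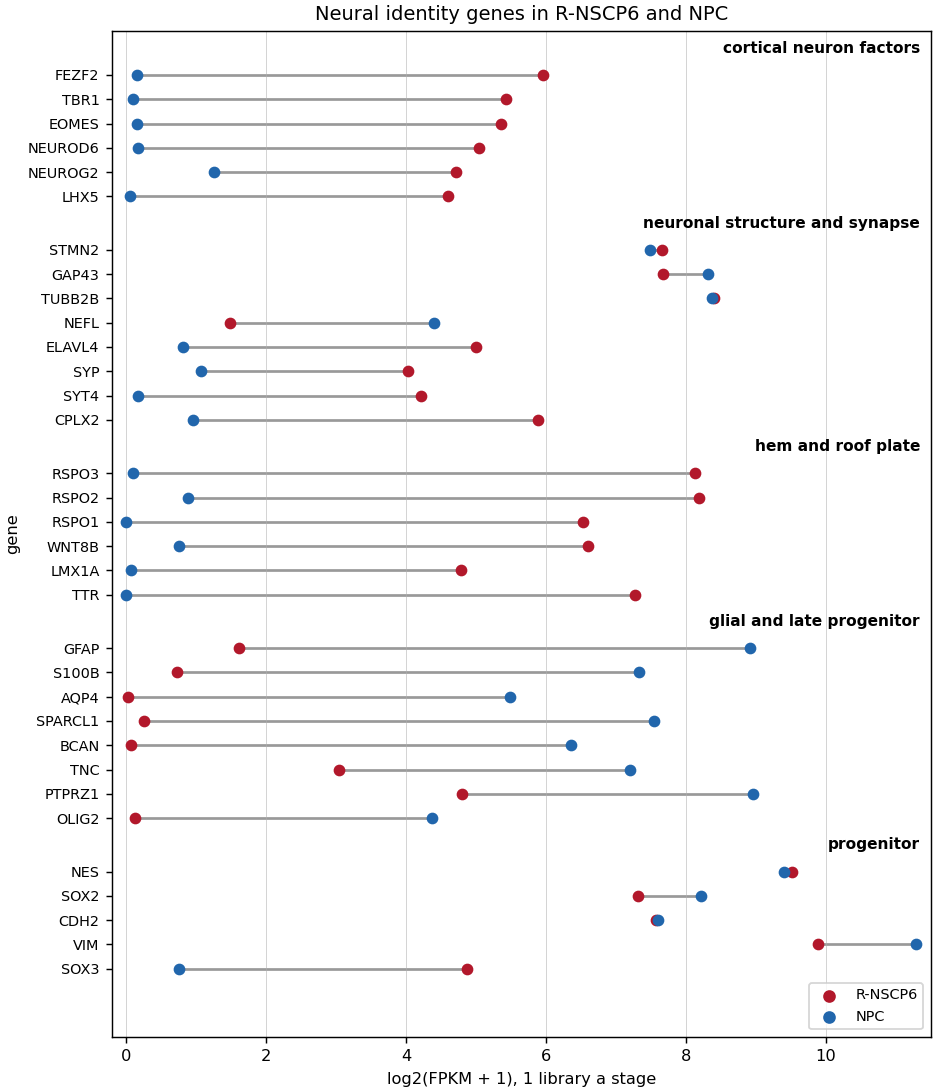
Levels of genes of neural identity as log2(FPKM + 1) on the x axis, with 1 red point for R-NSCP6 and 1 blue point for NPC per gene. Cortical neuron factors and hem genes drop to near 0 in NPC, STMN2 and TUBB2B barely move, glial genes lie far to the right in NPC, and NES and CDH2 stay in place.

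Regional factors differed as well. Of 25 forebrain patterning factors, 20 were lower in NPC and none was higher, with a median log2 ratio of -2.95. DMRT3, a factor of the medial cortex, was at 46.3 FPKM in R-NSCP6 and listed at 0 in NPC, and its relative DMRTA2 (LOC714181) was at 53.7 and 0.221 FPKM. EMX1, which marks the dorsal telencephalon, was at 29.4 FPKM and listed at 0. Among the ZIC family, factors of the dorsal neural tube and of the medial forebrain, ZIC1 was at 114 and 2.58 FPKM and ZIC5 at 14.0 and 0.106 FPKM, beside ZIC2 above. NR2E1, which maintains adult neural stem cells, was at 21.7 and 0.116 FPKM. Other members kept part of their level, such as NR2F1 at 239 and 34.8 FPKM, LHX2 at 109.8 and 21.4 FPKM, EMX2 at 124.6 and 15.2 FPKM and PAX6 at 62.3 and 18.9 FPKM. Within 2-fold were the anterior factor SIX3 (LOC717027), at 7.92 and 10.1 FPKM, and the Wnt effector TCF7L2, at 28.8 and 35.03 FPKM. With FPKM divided by the library sum, 2 members passed 2-fold towards NPC and 19 towards R-NSCP6.

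The signalling centres of the dorsal midline had lower levels too. Of 27 genes of the cortical hem, roof plate and choroid plexus, 14 were lower in NPC and 4 higher, with a median log2 ratio of -1.48. Beside the R-spondins, the hem ligand WNT8B was at 96.0 FPKM in R-NSCP6 and 0.682 FPKM in NPC, and the roof plate factor LMX1A at 26.5 and 0.0528 FPKM. WNT2B and WNT3A, further hem ligands, were at 3.24 and 5.02 FPKM and were both listed at 0 in NPC. The choroid plexus genes TTR and CLIC6 were at 154 and 17.0 FPKM and were both listed at 0 in NPC. The 4 higher members were ENPP2, the enzyme that makes lysophosphatidic acid (0.774 and 19.8 FPKM), MSX1, WNT5A (2.23 and 7.57 FPKM) and WNT7A (4.92 and 11.9 FPKM). The BMP ligand BMP7 was within 2-fold, at 69.8 and 43.2 FPKM.

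Factors of more caudal and ventral levels went the other way, from low values. Only 11 of the 41 listed genes of midbrain, hindbrain and spinal cord have a row, and the HOX genes of the list have none, so the caudal axis was assessed only in part. A missing row may mean a low level in every stage or an unmatched symbol. Of the 11, 6 were higher in NPC and none was lower. Only NKX6-1 and MEIS2 reached 1 FPKM in R-NSCP6, and on FPKM + 1 a gene below that could not be called lower. PAX3, PAX7, PAX8 and OLIG3, counted within 2-fold, reached 3 FPKM only in R-NSCP1 and lay at 0.421 FPKM or less in both libraries. IRX5 was at 0.0799 FPKM in R-NSCP6 and 10.5 FPKM in NPC, and IRX3, like it an Iroquois factor, at 0.0503 and 8.77 FPKM. NKX6-1, a ventral progenitor factor of hindbrain and spinal cord, was at 3.31 and 9.98 FPKM. EN2 and GBX2, factors of the midbrain and hindbrain border, were at 0.108 and 3.31 FPKM and at 0.122 and 2.84 FPKM. For EN2 and GBX2 the R-NSCP1 library had more than NPC, with 11.405 and 5.25 FPKM, and for IRX5 it had 1.24 FPKM.

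Astrocyte genes were mostly higher in NPC. Of 47 listed, 35 have a row, of which 22 were higher and 3 lower, with a median log2 ratio of 1.96. Among the higher members, GFAP, S100B, AQP4, HEPACAM, SPARCL1, SLC4A4 and CRYAB reached 3 FPKM only in NPC. They may have a row only through NPC and could then not come out lower there. The membrane protein gene MLC1 (LOC715409), active at astrocyte end-feet, was at 10.1 FPKM in R-NSCP6 and 318 FPKM in NPC. S100B was at 0.650 and 159 FPKM, the water channel AQP4 at 0.0228 and 43.7 FPKM and the hyaluronan receptor CD44 at 1.81 and 167 FPKM. SLC4A4, the sodium bicarbonate cotransporter of astrocytes, was at 0.124 and 13.01 FPKM. Some genes often used for astrocytes lay within 2-fold, such as the glutamine synthetase gene GLUL at 90.9 and 137 FPKM and cystatin C (CST3) at 199 and 157 FPKM. The 3 lower genes were ALDOC (26.2 and 8.53 FPKM), NDRG2 (16.8 and 3.48 FPKM) and the FGF receptor FGFR3 (50.6 and 23.9 FPKM).

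Genes of outer radial glia and late progenitors were also mostly higher, with 16 of 24 higher, 3 lower and a median of 1.85. The receptor phosphatase PTPRZ1 was at 26.8 FPKM in R-NSCP6 and 499.8 FPKM in NPC, and its ligand pleiotrophin (PTN) at 218 and 1525 FPKM. Tenascin C (TNC), a matrix protein that also binds PTPRZ1, was at 7.25 and 147 FPKM. The brain proteoglycan BCAN was at 0.0445 and 81.4 FPKM, and the galectin LGALS1 at 10.8 and 392 FPKM. BCAN, EGFR and ACSBG1 reached 3 FPKM only in NPC, so they may have a row only through NPC. NR2E1, CKB and VCAN were the lower members, CKB at 415 and 103 FPKM and VCAN at 15.8 and 1.28 FPKM. NCAN, a proteoglycan related to BCAN, was within 2-fold, at 32.2 and 17.7 FPKM.

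Oligodendrocyte lineage genes were represented by 9 of 27, of which 6 were higher in NPC and none was lower. OLIG2 (LOC700098), a factor that oligodendrocytes require, had 0.0959 FPKM in R-NSCP6 and 19.7 FPKM in NPC. Its relative OLIG1 (LOC706574) was at 0.0260 and 8.87 FPKM, and SOX8 (LOC722402) was at 0.951 and 13.9 FPKM. These factors reached 3 FPKM in NPC alone, so they may have a row only through NPC and could then not come out lower there. The defining genes PDGFRA, SOX10 and MBP have no row, which may mean a low level in every stage or unmatched symbols, and no level was assessed. UGT8, an enzyme of myelin lipids, stayed under 1 FPKM in both libraries, and CLDN11, the tight junction protein of myelin, was at 1.03 and 0.0376 FPKM.

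Shared progenitor genes had no common direction, with 4 of 14 higher and 5 lower. NES was at 735 FPKM in R-NSCP6 and 677 FPKM in NPC and N-cadherin (CDH2, LOC711526) at 190.0 and 193 FPKM. SOX2 was at 159 and 296 FPKM, which is within 2-fold, while its close relatives SOX3 (LOC696412) and SOX1 (LOC708561) were lower in NPC, at 28.3 and 0.694 FPKM and at 2.85 and 0.307 FPKM. VIM was at 948 and 2515 FPKM, SOX9 at 13.3 and 53.6 FPKM and FABP7 at 492 and 1767 FPKM. Genes that a human study had assigned to rosettes were mostly lower in NPC, 10 of 13 with a row against 2 higher. Among them were LEF1, MECOM (12.5 and 0.0306 FPKM), DACH1 (38.2 and 14.8 FPKM) and ZBTB16, the gene of the rosette marker PLZF, which was already low in R-NSCP6 (1.76 and 0.322 FPKM). R-NSCP1 had 10.9 FPKM of ZBTB16.

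**Figure D3:**
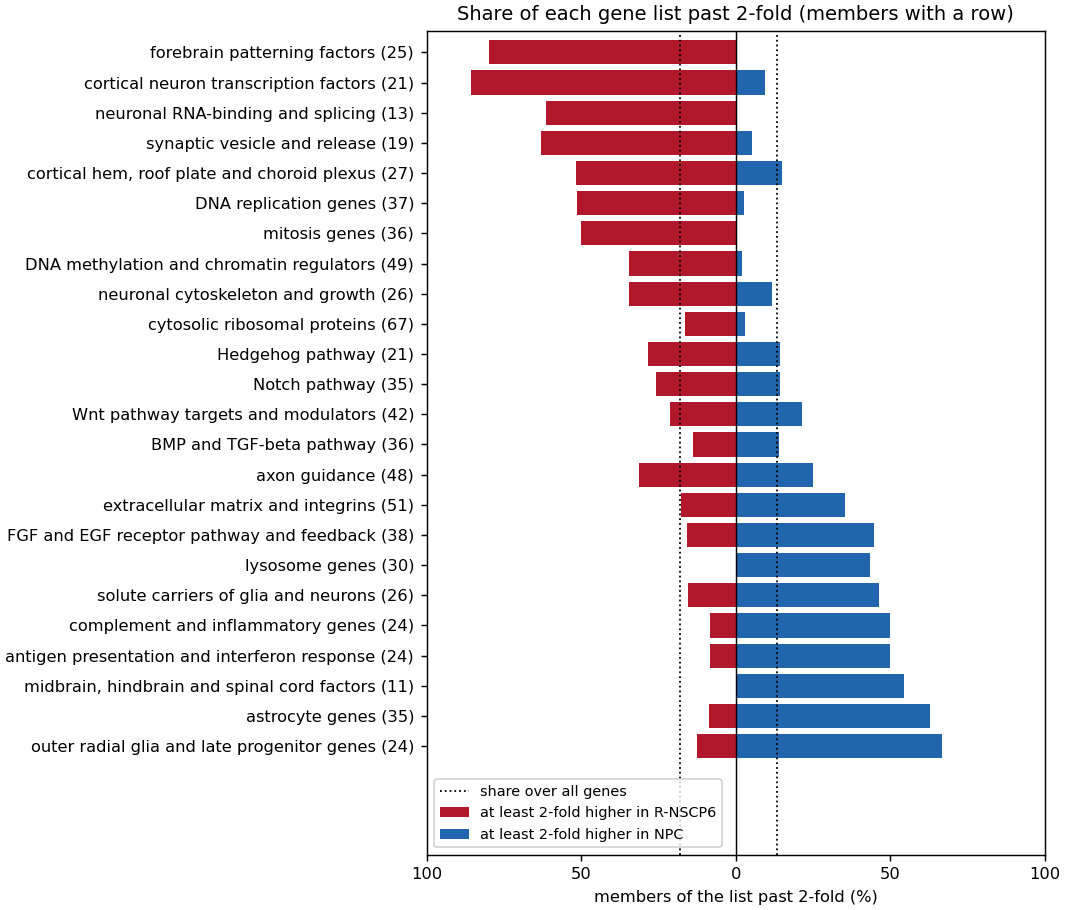
Share of each gene list that was at least 2-fold higher in R-NSCP6 (red, to the left) or in NPC (blue, to the right), in percent of members with a row, whose number stands in brackets. Dotted lines mark the shares over all genes, 18.2% and 13.2%. Forebrain, neuronal, hem and proliferation lists extend past the line on the left, and glial, immune, lysosome and FGF lists past that on the right.

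Hedgehog genes went in both directions. GLI1, a transcription factor that is also a direct target of the pathway, was at 11.36 FPKM in R-NSCP6 and 1.82 FPKM in NPC. PTCH1, the SHH receptor and likewise a direct target, went the opposite way, from 6.88 to 36.0 FPKM. SHH itself was at 0.0666 FPKM in R-NSCP6 and 9.01 FPKM in NPC. The co-receptors CDON (9.87 and 0.678 FPKM), GAS1 (LOC694650, 14.6 and 2.91 FPKM) and BOC (18.4 and 8.29 FPKM) were all lower in NPC. So were GLI3 at 11.8 and 4.93 FPKM and GLI2 at 4.63 and 0.713 FPKM, whereas the transducer SMO lay just within 2-fold at 42.9 and 21.5 FPKM. Over the 21 genes with a row, 6 were lower (28.6%, against 18.2% of all genes) and 3 higher (14.3%, against 13.2%). The median was -0.24 as deposited and 0.21 with FPKM divided by the library sum, so the list as a whole has no stable direction.

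In the Notch pathway, 9 of 35 genes were lower in NPC (25.7%, against 18.2% of all genes). Another 5 were higher (14.3%, against 13.2%) and 21 lay within 2-fold. The median log2 ratio was -0.18, close to that of all genes, and changed sign to 0.42 with FPKM divided by the library sum. HES6, which is induced in newborn neurons and antagonises HES1, was at 282 FPKM in R-NSCP6 and 52.9 FPKM in NPC. HES1, the main progenitor effector, was at 59.0 and 50.3 FPKM. The ligands DLL1 (44.5 and 18.9 FPKM), DLL3 (8.64 and 3.37 FPKM) and JAG2 (5.32 and 1.45 FPKM) and the neuronal DNER (24.9 and 6.02 FPKM) were lower in NPC, whereas JAG1 (7.53 and 18.97 FPKM) and the Notch glycosyltransferase LFNG (LOC100428736, 13.4 and 44.9 FPKM) were higher. The processing enzymes NCSTN (19.8 and 70.9 FPKM) and ADAM17 (17.1 and 46.0 FPKM) were higher too.

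Genes of the FGF and EGF receptor pathway were more often higher in NPC: 17 of 38 were higher and 6 lower, with a median log2 ratio of 0.48. EGFR was at 0.0675 FPKM in R-NSCP6 and 7.99 FPKM in NPC, while FGFR1 was at 35.8 and 87.8 FPKM. Several of the higher genes encode inhibitors of receptor signalling. SPRY2 (LOC702103) was at 2.94 and 51.5 FPKM, SPRED1 (LOC100430739) at 3.92 and 39.5 FPKM, the ERK phosphatase DUSP6 at 5.09 and 20.4 FPKM and the FGF antagonist IL17RD at 4.20 and 15.0 FPKM. SPRY1 (8.17 and 23.2 FPKM), SPRY4 (1.40 and 4.40 FPKM) and SPRED2 (6.10 and 16.8 FPKM) had the same direction. The transcription factors ETV5 and ETV4, targets of FGF signalling, were at 3.77 and 19.1 FPKM and at 8.08 and 22.6 FPKM. The ligands FGF1 and FGF2 were at 0.170 and 15.5 FPKM and at 1.72 and 8.28 FPKM. The immediate early gene EGR1 did not share this direction, with 201 FPKM in R-NSCP6 and 109 FPKM in NPC, nor did the ERK phosphatase DUSP5 at 3.74 and 1.14 FPKM.

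Wnt and BMP genes passed 2-fold in shares not far from those of all genes, 13.2% higher and 18.2% lower. Of 42 Wnt genes, 9 were higher and 9 lower, 21.4% each way. LEF1, a nuclear effector and target, was at 20.7 FPKM in R-NSCP6 and 0.0579 FPKM in NPC, and ROR2, a receptor of WNT5A, at 6.52 and 0.0704 FPKM. LGR4, a receptor for R-spondins, was at 2.25 and 20.5 FPKM, the reverse of its ligands. The secreted antagonists FRZB (2.82 and 22.6 FPKM) and DKK3 (45.9 and 187 FPKM) were higher in NPC, whereas SFRP4 was lower (10.6 and 1.72 FPKM). Beta-catenin (CTNNB1) was at 252 and 175 FPKM and the Wnt carrier WLS at 273 and 195 FPKM. Of 36 BMP and TGF-beta genes, 5 were higher and 5 lower, 13.9% each way. The BMP target ID1 (LOC713160) was at 100.5 FPKM in R-NSCP6 and 4.71 FPKM in NPC, and the decoy receptor BAMBI, another target, at 44.1 and 3.11 FPKM, as was BMP2 at 5.03 and 0.201 FPKM. The related ID2 and ID4 were within 2-fold, at 40.7 and 52.9 FPKM and at 113 and 150.0 FPKM. TGFB1 was higher in NPC, at 2.80 and 20.7 FPKM.

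**Figure D4:**
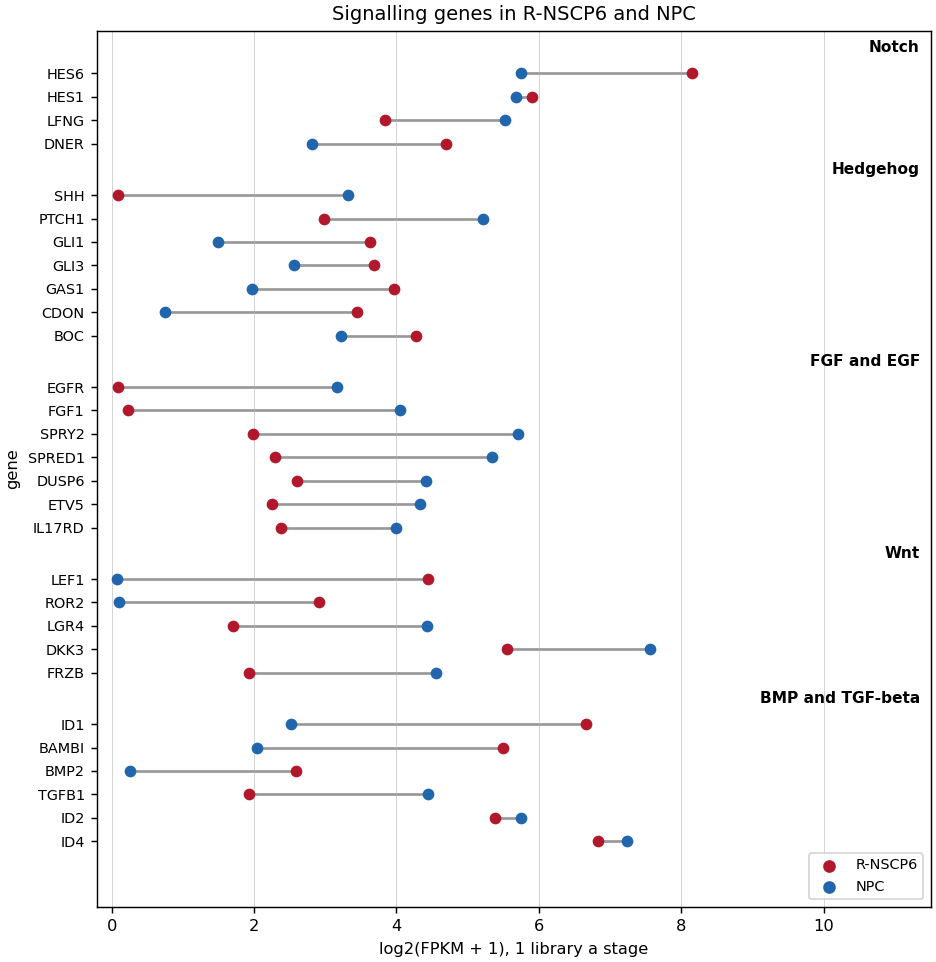
Levels of signalling genes as log2(FPKM + 1) on the x axis in R-NSCP6 (red) and NPC (blue), 1 library each. PTCH1 and SHH lie to the right in NPC while GLI1 lies to the left, all 7 FGF and EGF genes shown are higher in NPC, and ID1 and BAMBI are far lower while ID2 and ID4 hardly move.

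Many proliferation genes were lower in NPC. Of 36 mitosis genes, 18 were lower and none was higher, with a median log2 ratio of -0.97, which is 0.80 below that of all genes. AURKB, the kinase of the chromosomal passenger complex, was at 83.6 FPKM in R-NSCP6 and 13.6 FPKM in NPC, and the activator of the anaphase-promoting complex CDC20 at 123 and 25.6 FPKM. PLK1 was at 64.7 and 22.1 FPKM. TOP2A lay within 2-fold, at 105.7 and 55.1 FPKM. Of 37 DNA replication genes, 19 were lower and 1 was higher, with a median of -1.01. The licensing factor CDT1 (LOC711530) was at 87.4 and 11.6 FPKM, the helicase subunit MCM5 at 57.6 and 14.1 FPKM and MCM7 at 134 and 45.5 FPKM. The exception, cyclin E2 (CCNE2), was at 2.69 and 9.11 FPKM, and RRM2 was within 2-fold, at 24.2 and 36.0 FPKM. The size of this difference depends on scaling, since with FPKM divided by the library sum only 2 mitosis genes and 7 replication genes were lower by 2-fold, with medians of -0.40 and -0.39.

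Among cell cycle inhibitors and genes linked to senescence, 10 of 25 were higher in NPC and 4 lower. CDKN2A (LOC709988), which encodes p16, was at 0.0332 FPKM in R-NSCP6 and 5.10 FPKM in NPC, and CDKN1A, which encodes p21, at 18.6 and 47.1 FPKM. GADD45A was at 13.5 and 52.5 FPKM, the RNA-binding zinc finger gene ZMAT3 (LOC710132) at 1.15 and 20.0 FPKM and the secreted IGFBP3 at 0.853 and 74.96 FPKM. CDKN1C went the other way, at 66.7 and 11.98 FPKM, and the nuclear lamina gene LMNB1, which falls in senescent cells, was at 146 and 45.5 FPKM. RB1, which restrains entry into S phase, was within 2-fold at 17.7 and 30.1 FPKM.

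Chromatin regulators were lower more often than higher, with 17 of 49 lower, 1 higher and a median of -0.62, although 5 passed 2-fold in each direction with FPKM divided by the library sum. ACTL6B and DPF1 (LOC719503), subunits of the BAF remodelling complex specific to neurons, were at 18.3 and 0.260 FPKM and at 23.1 and 6.31 FPKM. The Polycomb subunit CBX2 (LOC717462) was at 46.7 and 12.1 FPKM, and the de novo DNA methyltransferase DNMT3A at 29.2 and 9.95 FPKM. TET2, which oxidises methylcytosine, was the higher member, at 1.15 and 5.12 FPKM. HMGA2, a chromatin protein of fetal stem cells and a let-7 target, was at 62.9 FPKM in R-NSCP6 and 6.28 FPKM in NPC, and the oncofetal RNA-binding protein IGF2BP1 (LOC698462) at 6.93 and 0.269 FPKM. Its relatives IGF2BP2 and IGF2BP3 lay within 2-fold, at 56.9 and 42.2 FPKM and at 30.9 and 25.8 FPKM. Imprinted genes were split, 6 of 19 lower (31.6%, against 18.2% of all genes) and 4 higher (21.1%, against 13.2%). The growth regulator DLK1 was at 58.4 and 0.962 FPKM, NNAT at 793 and 123 FPKM and NDN at 103.4 and 18.6 FPKM, while IGF2R was at 11.1 and 42.2 FPKM, SGCE at 24.6 and 69.4 FPKM and MEST nearly level at 412 and 459 FPKM.

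Genes of the cell surface and its matrix differed in both directions. Of 51 genes of the extracellular matrix and integrins, 18 were higher in NPC and 9 lower. The integrin subunit ITGAV was at 2.88 FPKM in R-NSCP6 and 46.2 FPKM in NPC, and ITGB8, which pairs with it, at 9.89 and 80.5 FPKM. COL12A1 was at 0.346 and 13.7 FPKM and osteopontin (SPP1) at 1.41 and 23.8 FPKM, whereas COL2A1 and its partner collagen COL9A3 (30.2 and 2.67 FPKM) were lower. Basement membrane laminin LAMC1 and collagen COL4A2 were within 2-fold, at 35.8 and 57.4 FPKM and at 49.3 and 82.2 FPKM. Cadherin, junction and polarity genes had no common direction, with 8 of 43 higher (18.6%, against 13.2% of all genes) and 11 lower (25.6%, against 18.2%). The adhesion molecules L1CAM and CHL1, which are related, changed in opposite directions, at 12.2 and 1.77 FPKM and at 2.23 and 47.4 FPKM. Apical polarity genes did so as well: the kinase PRKCZ (LOC710340) was at 28.5 and 1.49 FPKM and its partner PARD6A at 7.29 and 1.23 FPKM, while the apical transmembrane protein CRB1 was at 2.65 and 18.98 FPKM, PRKCI at 5.85 and 13.5 FPKM and the tight junction protein ZO-1 (TJP1) at 9.78 and 21.8 FPKM.

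Axon guidance genes were likewise divided, 12 of 48 higher and 15 lower. Netrin 1 (NTN1) was at 0.367 FPKM in R-NSCP6 and 23.9 FPKM in NPC, whereas netrin receptors were lower, with DCC at 6.18 and 0.625 FPKM, UNC5C at 4.56 and 0.146 FPKM and NEO1 at 34.4 and 14.1 FPKM. Neuropilin 2 (NRP2) was at 5.82 and 54.6 FPKM, the ligand SEMA3A (LOC708263) at 2.94 and 23.8 FPKM and SEMA3F, a ligand of NRP2, at 6.48 and 0.0571 FPKM. SLIT2 was at 23.7 and 3.58 FPKM and SLIT1 at 6.69 and 25.7 FPKM. The ephrin receptor EPHA7 (LOC707295) was at 17.7 and 0.571 FPKM.

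Genes of antigen presentation and of the interferon response were higher in NPC in 12 of 24 cases and lower in 2, with a median log2 ratio of 1.01. The MHC class I light chain B2M was at 86.3 and 361 FPKM, and tapasin (TAPBP) at 5.35 and 19.6 FPKM. Some interferon-induced genes were higher from low levels, such as IFI35 at 0.192 and 8.81 FPKM, BST2 at 2.03 and 22.1 FPKM and IFIT2 at 0.484 and 7.13 FPKM. IFI35 and IFIT2 reached 3 FPKM only in NPC, so they may have a row only through NPC. IFI16 (LOC719253), a DNA sensor outside the list, was at 0.463 and 80.9 FPKM. The interferon-response factor IRF9 (LOC715335) was within 2-fold, at 8.09 and 15.9 FPKM, and so were the interferon-induced MX1, at 6.50 and 7.76 FPKM, and IFIT5, at 6.07 and 5.73 FPKM. ISG15 was lower, at 10.7 and 4.81 FPKM. IFITM1, IFITM3 and MAMU-A were listed at 0 in both libraries, although ESC had 907, 763 and 29.9 FPKM of them. They count above as within 2-fold but cannot be taken as measured, and without them 21 genes remain with a median of 1.14. Several class I genes of the list have no row. Complement and inflammatory genes had 12 of 24 higher and 2 lower, with clusterin (CLU) at 119 and 482 FPKM, PTX3 at 2.35 and 24.98 FPKM and the oncostatin M receptor OSMR at 0.580 and 11.1 FPKM. CXCL10 was at 7.08 FPKM in NPC and listed at 0 in the other 3 libraries, so it may have a row only through NPC.

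Lysosome genes were higher in 13 of 30 cases and lower in none, with a median log2 ratio of 0.71. The membrane protein LAMP2 was at 12.3 FPKM in R-NSCP6 and 106.5 FPKM in NPC, the protease TPP1 (LOC709838) at 21.9 and 108.0 FPKM, acid ceramidase (ASAH1) at 22.1 and 93.5 FPKM and prosaposin (PSAP) at 171 and 509 FPKM. Cathepsin D (CTSD), at 78.9 and 91.2 FPKM, and NPC2, a cholesterol carrier, at 121.0 and 127 FPKM, were within 2-fold. Solute carriers of glia and neurons had 12 of 26 members higher and 4 lower. The cystine and glutamate exchanger SLC7A11 was at 0.195 and 23.7 FPKM, the chloride cotransporter SLC12A4 at 5.50 and 45.6 FPKM, the GABA transporter SLC6A11 at 0.125 and 7.17 FPKM and the glutamate transporter SLC1A3 at 26.4 and 335.7 FPKM. Among ion channels, 10 of 31 were higher (32.3%, against 13.2% of all genes) and 6 lower (19.4%, against 18.2%). KCNJ10, the glial potassium channel, was at 0.621 and 9.68 FPKM and the calcium-activated KCNMA1 at 0.861 and 20.5 FPKM.

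Stress and chaperone genes that passed 2-fold were mostly lower in NPC. Of 20 heat shock and chaperone genes, 7 were lower and 2 higher, with a median of -0.83, but none was lower by 2-fold with FPKM divided by the library sum. The chaperonin subunits CCT7 and TCP1 were at 196 and 76.0 FPKM and at 131 and 55.6 FPKM, and the 2 higher genes were CRYAB, abundant in astrocytes (1.90 and 18.4 FPKM), and BAG3 (2.12 and 7.81 FPKM). Of 24 genes of unfolded protein and amino acid stress, 8 were lower and none higher. They hold the stress factor ATF4 (420.0 and 137 FPKM), its target ASNS (31.7 and 3.91 FPKM) and DDIT3 (LOC714901, 17.5 and 4.78 FPKM), while the endoplasmic reticulum chaperone HSPA5 was at 198 and 173 FPKM. The list median was -0.33 and became 0.29 with FPKM divided by the library sum.

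Most genes of general metabolism lay within 2-fold. Of 25 glycolysis genes 5 were lower and 2 higher (20.0% and 8.0%). Of 22 cholesterol synthesis genes it was 4 and 2 (18.2% and 9.09%), and of 62 respiratory chain genes 9 and 2 (14.5% and 3.23%). Over all genes, 18.2% were lower and 13.2% higher. Of the 62 respiratory chain genes, 8 were under 0.1 FPKM in both libraries, 6 of them listed at 0 in both, although ESC had 159 to 1148 FPKM of each. They count above as within 2-fold but cannot be taken as measured, and without them 54 genes remain with a median of -0.26. The medians of these 3 lists lay between -0.38 and -0.22 and all became positive with FPKM divided by the library sum. PFKFB3, which drives glycolytic flux, was at 5.06 FPKM in R-NSCP6 and 45.5 FPKM in NPC, while LDHA was at 208 and 80.2 FPKM. Cytosolic ribosomal protein genes had a median of -0.35, which became 0.27 under that scaling. Of 67, 11 were lower and 2 higher, and their log2 ratios ran from -2.17 for RPL38, at 9118 and 2022 FPKM, to 1.53 for RPL37 (LOC695667), at 242 and 702 FPKM. The genes for these proteins have many processed copies, so single values are uncertain.

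**Figure D5:**
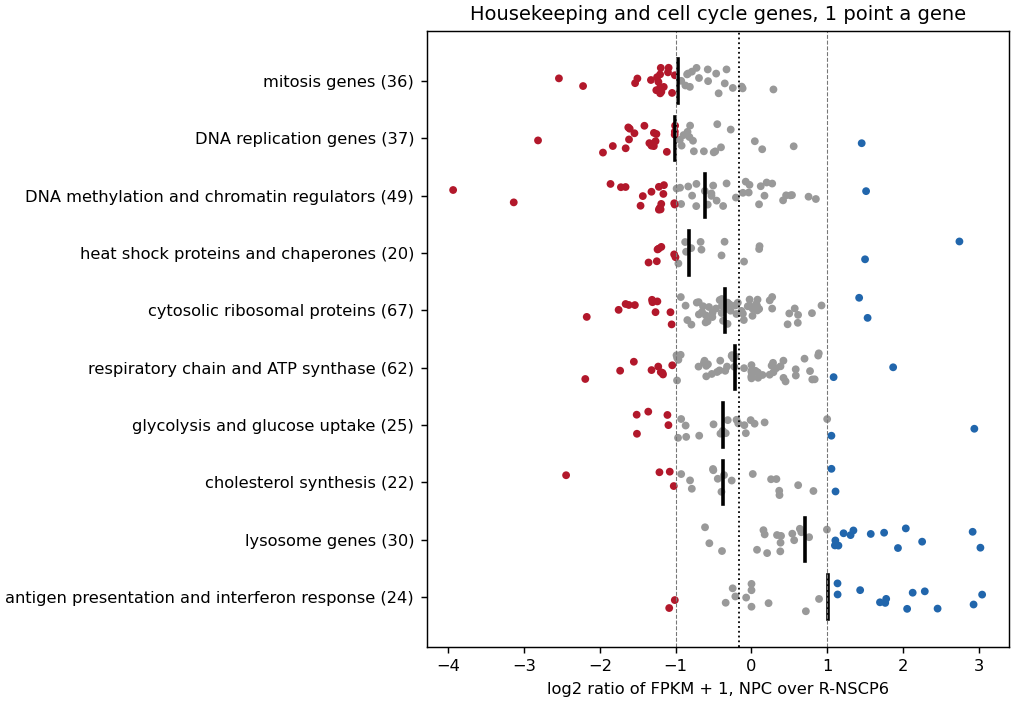
Log2 ratio of FPKM + 1, NPC over R-NSCP6, for each gene of 10 lists (1 point a gene, number of genes in brackets). Black bars are list medians, the dotted line is the median of all genes (-0.17) and dashed lines mark 2-fold. Mitosis and replication genes centre near -1, ribosomal and respiratory genes centre near the dotted line with a wide spread, and lysosome genes lie mostly to its right.

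Genes of other lineages were low in both libraries with few exceptions. Of 14 fibroblast and mesenchyme genes, 4 were higher in NPC, with S100A4 at 0.452 and 8.02 FPKM, POSTN at 0.837 and 5.68 FPKM, TWIST1 at 0.0289 and 5.18 FPKM and LUM under 3 FPKM in both. Of the simple epithelial keratins, KRT8 was lower at 20.2 and 0.398 FPKM and KRT18 at 8.86 and 0.0704 FPKM, while KRT19 was within 2-fold at 3.23 and 1.69 FPKM. Of 8 neural crest genes, 2 were higher in NPC, while TFAP2A was at 3.15 and 1.55 FPKM and FOXD3 was listed at 0 in R-NSCP6 and 0.0129 FPKM in NPC. The part of minor cell types in the differences above was not tested.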

How the data were processed

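Polyadenylated RNA from each stage was sequenced as 1 pooled library. The authors aligned reads to the rhesus genome MMUL_1.0 with TopHat (2.0.6 in the study's methods, TopHat2 2.0.5 with Bowtie 0.12.8.0 in the submitters' processing notes) and deposited FPKM values from Cufflinks 2.0.2, 1 column a stage. Of any further scaling nothing is stated. FPKM carry no counts per gene, so no counting interval was given. FPKM divides by transcript length and library size, so a few genes with very many fragments can lower all others. A share of the FPKM sum is not a share of fragments, and whether CTXN1 lowered the other R-NSCP6 values was not tested.

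From these values log2 ratios of FPKM + 1 were computed in Python 3.11.15 with pandas 2.3.3 and numpy 2.4.6, and figures were drawn with matplotlib 3.10.9. A repeated symbol kept its row of highest mean. The code that applies the fold rule was tested on simulated data with known ratios. No statistical test was run. The comparison, its members and the gene lists were chosen with earlier results of these data known. Members listed under a LOC symbol were named through a table of reference genes.

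Genes named were, in each list, up to 8 members with the largest absolute log2 ratio among those of at least 5 FPKM in either library, and abundant members that did not pass 2-fold. Added were the 20 largest ratios in each direction among genes of at least 20 FPKM in the higher library, and genes the study names for these stages. Some further list members were chosen after their values were seen. The alternatives were other pseudocounts, filters, scalings and folds. A planned description by gene and protein length was not run, since no lengths of this build were used here. The small RNA table was not used. Some single genes are not reported here, although they are counted in their lists.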

Additional observations from a re-analysis of the deposited data

How the results depend on the processing

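With 1 library a stage, no library could be left out. No paired analysis was possible because each stage has a single pooled library. The count of genes higher in NPC, 1645, became 1036 with at least 10 FPKM in either library, 504 at 4-fold and 3210 with FPKM divided by the library sum. The count higher in R-NSCP6, 2269, became 626 at 4-fold, 1109 with FPKM divided by the sum and 1505 with the sum taken without the 20 highest rows. The share of called genes that were higher in NPC, 42.0%, was 61.0% on that last scale, 54.0% with median-of-ratios scaling and 53.2% with upper-quartile scaling. Median log2 ratios of all genes were 0.10, 0.00 and -0.01 on those 3 scales. CTXN1 alone held 15.7% of the R-NSCP6 sum.

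Of 15 lists with a median of at least 1 in size, 14 kept its sign under every alternative run. The exception was transmitter synthesis and receptors, -1.11 over 17 genes and 1.18 over the 7 with at least 10 FPKM in either library. Of all 45 list medians, 27 kept 1 sign. Of 320 named genes past 2-fold, 304 stayed past it with a pseudocount of 3 and 291 with the sum without the 20 highest rows. With median-of-ratios scaling 306 stayed past it, and with upper-quartile scaling 309. None could reverse, since pseudocounts and filters keep the sign of a ratio and the scalings moved ratios by less than 2-fold. Without replicates or counts, no value here carries an error, and small ratios cannot be told from noise.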
